A study of Homo sapiens with 12 samples.

Results

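The BCL2 family of apoptosis regulators was examined in RCC4, a human clear cell renal carcinoma cell line. Its members here are 10 genes chosen by name: the pro-survival genes BCL2, BCL2L1 and MCL1, the effectors BAX and BAK1, and the BH3-only genes BBC3, PMAIP1, BCL2L11, BID and BMF. These are 10 of the 60663 genes in the count table, and all 10 had counts in all 12 libraries, from a lowest count of 90 (BMF) to a highest of 10906 (MCL1). All 10 passed the filter on low counts and were tested among 20714 genes. Total RNA depleted of ribosomal RNA was sequenced from RCC4 cells that had lost VHL (VHL-negative) and from RCC4 cells into which VHL had been put back (VHL-positive). Each line received DMSO, the solvent, or 5 µM JQ1, an inhibitor of BET bromodomain proteins. The labels give its role as MYC inhibitor. The 4 groups held 3 libraries each. All cells were grown with geneticin in DMEM with high glucose. The labels do not give the VHL construct, how long JQ1 was applied, whether a line is 1 clone or whether each replicate was its own culture, so the p-values may measure technical spread only.

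BCL2 family proteins decide whether the outer mitochondrial membrane stays intact. BAX and BAK1 form the pores that release cytochrome c, the pro-survival members hold them in check, and BH3-only proteins free or activate them when a cell is stressed. Much of the control lies in protein binding, turnover and location, which RNA levels do not measure.

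Total counts per library ran from 15452949 to 32502310. Mitochondrial transcripts took 9.9 to 25.3% of counts, with the highest share in the first VHL-negative DMSO library. VHL, the gene that separates the lines, was at 26.4 ± 1.64 CPM (read counts scaled to library size with TMM factors, mean ± SD, n = 3) in VHL-negative cells under DMSO and at 70.3 ± 7.62 CPM in VHL-positive cells. Under JQ1 it was at 32.7 ± 2.39 and 212 ± 14.0 CPM. Of the renal epithelial markers, PAX8 lay between 193 and 722 CPM, and CDH6, KRT8 and KRT18 were at 60.2 CPM or more in all libraries. PAX2 lay between 6.08 and 24.9, CDH16 between 2.99 and 173 and LHX1 between 0.194 and 2.99 CPM. PTPRC of leukocytes and PECAM1 of endothelium stayed at or below 0.329 CPM, and DCN of fibroblasts at or below 0.183 CPM, while CSF1R reached 4.36, ESAM 9.89 and PDGFRB 7.86 CPM.

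Levels of different genes were compared per kilobase of exon, using the union of all annotated exons. In VHL-positive cells under DMSO, BCL2L1 (71.5 ± 12.0 CPM per kb) and MCL1 (68.7 ± 0.417) led, and their means differed by less than the SD of BCL2L1. BAX followed at 30.4 ± 3.87, then PMAIP1 at 15.3 ± 3.68, BCL2 at 13.8 ± 2.80 and BID at 11.6 ± 1.43, and neighbours among these last 3 differed by less than the larger of their SDs. Below them came BAK1 (6.69 ± 0.642), BBC3 (4.68 ± 0.180), BCL2L11 (2.87 ± 0.655) and BMF (1.58 ± 0.588). BCL2L1, MCL1 and BAX held the 3 highest levels in all 4 groups, and did so also with the longest transcript as the length. BMF was the lowest of the 10 in all groups under both lengths. MCL1 took the first rank in VHL-negative cells under JQ1 (85.0 ± 0.335 against 73.6 ± 11.8 for BCL2L1) and ranked below BCL2L1 in the 3 other groups. In VHL-negative cells under JQ1 the means again differed by less than the SD of BCL2L1, and in replicate 1 the ratio of MCL1 to BCL2L1 was 0.99. The ranks from 4 to 9 depended in part on the length used, and in VHL-negative DMSO cells MCL1 and BAX exchanged ranks 2 and 3 with the longest transcript.

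**Figure D1:**
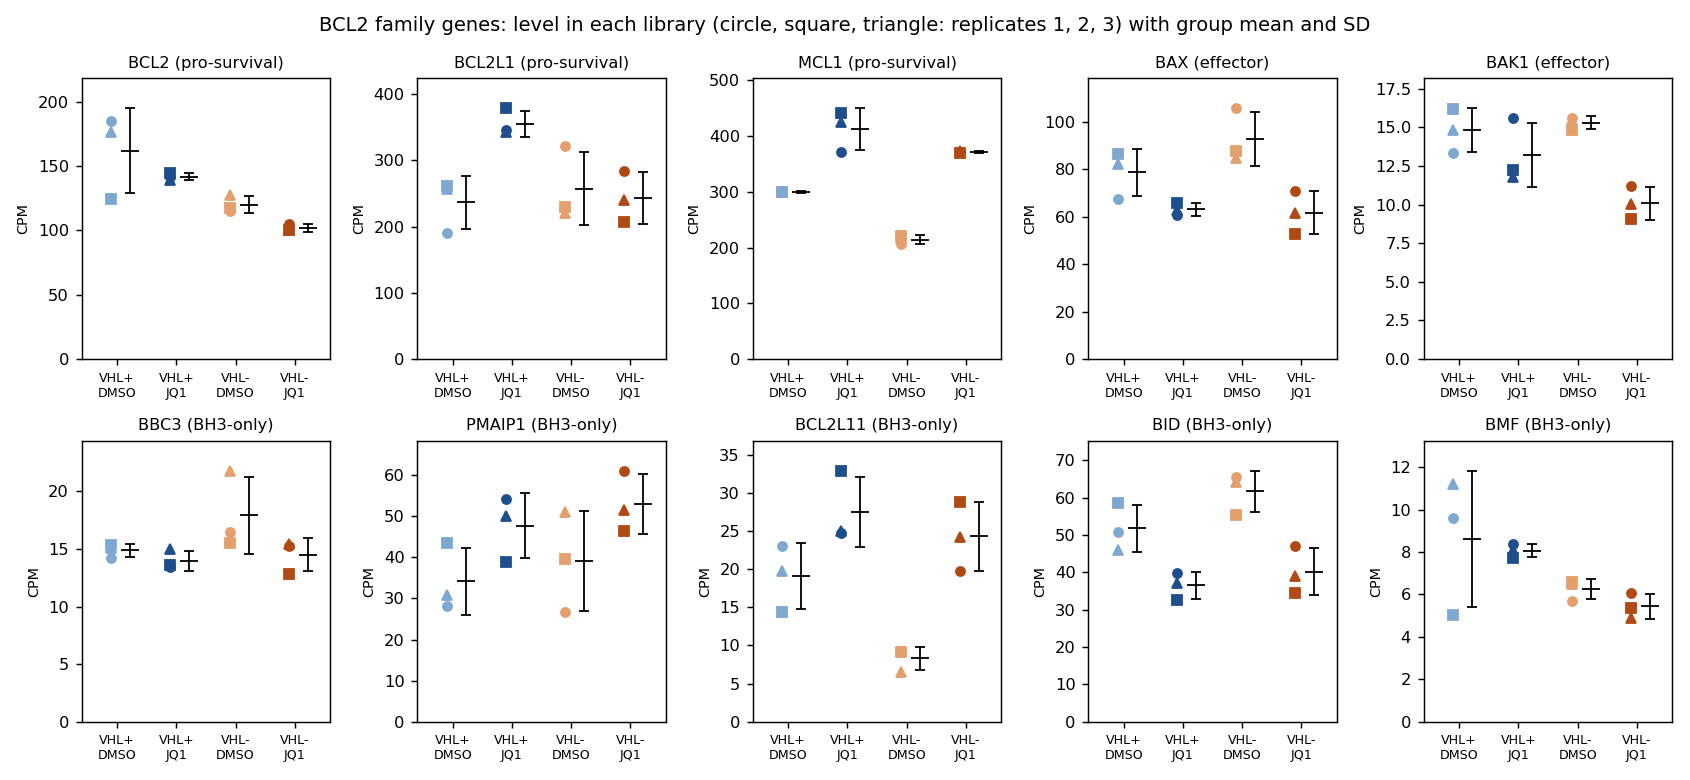
Level of each BCL2 family gene in CPM (y axis, linear from 0) in the 4 groups (x axis), with symbols for replicates 1, 2 and 3 and a bar for the group mean with its SD. BCL2L11 sits lowest in VHL-negative DMSO cells (6.52 to 9.25 CPM), and MCL1 is higher under JQ1 than under DMSO in both lines without overlap.

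Among the pro-survival genes, MCL1 rose with JQ1 in both lines, BCL2L1 rose in VHL-positive cells, and BCL2 passed the test in neither. A gene was called when edgeR's quasi-likelihood test gave an adjusted p (Benjamini-Hochberg over all 20714 genes) under 0.05. MCL1 (ENSG00000143384, GRCh38 chromosome 1, 150574551 to 150579738, minus strand) encodes a short-lived protein that binds BAK1 and several BH3-only proteins. In VHL-negative cells it was at 206, 222 and 215 CPM in replicates 1 to 3 under DMSO and at 372, 370.2 and 373 CPM under JQ1. The treated libraries lay close together and far above all controls, a 1.74-fold rise (log2 0.79, SE 0.117, adjusted p = 9.15e-05). In the VHL-positive line MCL1 went from 302, 299 and 299 CPM to 371, 442 and 425 CPM. The groups again did not overlap, and the rise was 1.37-fold (log2 0.46, SE 0.116, adjusted p = 0.00671). This second call was lost when libraries were scaled by total counts alone (log2 0.345, adjusted p = 0.0722) and when no gene was filtered out (log2 0.45, adjusted p = 0.0558). In RNA from whole cultures, a change in the share of expressing cells and a change in RNA per cell cannot be told apart.

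BCL2L1 (ENSG00000171552, chromosome 20, 31664452 to 31723989, minus strand) encodes BCL-xL, which restrains BAX and BAK1, and through splicing the short pro-death form BCL-xS. Gene counts do not separate the forms. In VHL-positive cells it was at 191, 262 and 258 CPM under DMSO and at 346, 379 and 343 CPM under JQ1. All treated libraries lay above all controls, and BCL2L1 rose 1.502-fold (log2 0.59, SE 0.172, adjusted p = 0.016). Leaving out the first VHL-positive DMSO library (log2 0.45, adjusted p = 0.0732) or the second VHL-positive JQ1 library (log2 0.55, adjusted p = 0.0583) ended the call. In VHL-negative cells BCL2L1 was at 321, 229.7 and 221 CPM under DMSO and at 285, 207 and 239.9 CPM under JQ1. These libraries overlapped (log2 -0.08, 95% interval -0.44 to 0.29, adjusted p = 0.762), and the highest value belonged to the DMSO library with the highest mitochondrial share. Without that library the value was 0.11 on the log2 scale.

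Of the exon length of BCL2L1, 42.97% lies under ABALON, an antisense gene, and no source used here says whether strand was used in counting. ABALON itself rose with JQ1, from 1.45 ± 0.606 to 3.39 ± 0.662 CPM in VHL-positive cells (log2 1.21, adjusted p = 0.0133) and from 1.65 ± 0.220 to 4.94 ± 2.23 CPM in VHL-negative cells (log2 1.55, adjusted p = 0.00233). Reads from the shared stretch cannot be told apart without strand.

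BCL2 (ENSG00000171791, chromosome 18, 63123346 to 63320128, minus strand), the founding member of the family, was at 185, 124 and 177 CPM in VHL-positive DMSO cells and at 142, 144 and 139 CPM under JQ1. Its control libraries spread over a wider range than any treated group, and the groups overlapped (log2 -0.19, adjusted p = 0.317). In VHL-negative cells it was at 115, 117 and 127 CPM under DMSO and at 105, 100 and 100.5 CPM under JQ1. The treated libraries lay below the controls there, but the difference did not pass the test (log2 -0.23, 95% interval -0.53 to 0.06, adjusted p = 0.211).

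Both effectors fell with JQ1 in VHL-negative cells, and neither passed the test in VHL-positive cells. BAX (ENSG00000087088, chromosome 19, 48954815 to 48961798, plus strand) is the effector that moves from the cytosol to mitochondria, and BAK1 (ENSG00000030110, chromosome 6, 33572547 to 33580293, minus strand) is the one that resides there. Because they moved together in VHL-negative cells, the 250 bases before the RefSeq start of each are shown, written 5′ to 3′ on the gene's own strand, from RefSeq on GRCh38.p14. The BAX window is chr19:48954625-48954874 on the plus strand and the BAK1 window is chr6:33580277-33580526 on the minus strand. Capitals mark CACGTG, the E-box that MYC and related factors can bind. GENCODE 29 exons of the same gene cover the last 60 bases of the BAX window and the last 17 of the BAK1 window.

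BAX: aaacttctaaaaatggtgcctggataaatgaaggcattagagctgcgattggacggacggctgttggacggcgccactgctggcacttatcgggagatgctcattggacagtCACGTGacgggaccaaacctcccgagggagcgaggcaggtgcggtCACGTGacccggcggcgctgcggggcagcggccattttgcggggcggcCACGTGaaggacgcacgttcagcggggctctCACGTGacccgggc

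BAK1: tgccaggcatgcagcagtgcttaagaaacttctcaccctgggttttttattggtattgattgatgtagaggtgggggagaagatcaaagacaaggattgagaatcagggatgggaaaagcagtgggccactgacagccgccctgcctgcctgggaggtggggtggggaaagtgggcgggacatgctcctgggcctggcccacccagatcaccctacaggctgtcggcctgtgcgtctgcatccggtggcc

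The BAX window holds 4 E-boxes, whose first bases lie 138, 93, 45 and 14 bases before the start, and the BAK1 window holds none. CACGTG, which reads the same on both strands, occurs in 6.34% of the 35097 windows of this length over all genes, and at least 4 copies occur in 5 of them (0.0142%). Of the 9 members with a RefSeq window, 3 hold a CACGTG (BAX, BBC3 and BID), in 4 of the 15 windows of all 9 members. The BID windows with a CACGTG overlap and hold the same site. The core ACGTG or GCGTG of the element bound by hypoxia-inducible factors was searched on both strands outside CACGTG. It occurs in the windows of 6 of the 9 members, in 7 of 15 windows, against 40.2% of all windows. A match describes the letters only.

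BAX was at 106, 87.7 and 84.8 CPM in VHL-negative DMSO cells and at 70.7, 52.85 and 61.5 CPM under JQ1. The groups did not overlap, and BAX fell 1.501-fold (log2 -0.59, SE 0.141, adjusted p = 0.00476). In the VHL-positive line BAX was at 67.4, 86.4 and 82.1 CPM under DMSO and at 60.55, 65.65 and 62.9 CPM under JQ1. All treated libraries lay below all controls there too, but the test was not passed (log2 -0.32, 95% interval -0.62 to -0.02, adjusted p = 0.0958). It was passed when the first VHL-positive DMSO library was left out (log2 -0.42, adjusted p = 0.0451). BAX also passed in 5 of the 12 other settings. Among these were total counts alone (log2 -0.43, adjusted p = 0.0139) and protein-coding genes only (log2 -0.36, adjusted p = 0.022).

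BAK1 was at 15.6, 14.8 and 15.5 CPM in VHL-negative DMSO cells and at 11.2, 9.06 and 10.0 CPM under JQ1. The controls were tight and lay above all treated libraries, a 1.51-fold fall (log2 -0.60, SE 0.145, adjusted p = 0.00518). In the VHL-positive line it was at 13.4, 16.2 and 14.8 CPM under DMSO and at 15.6, 12.2 and 11.8 CPM under JQ1. The first treated library lay inside the range of the controls, and BAK1 did not pass (log2 -0.16, 95% interval -0.465 to 0.145, adjusted p = 0.432).

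Among the BH3-only genes, BCL2L11 rose and BID fell with JQ1 in both lines, while PMAIP1, BBC3 and BMF passed the test in neither. BCL2L11 (ENSG00000153094, chromosome 2, 111119378 to 111168447, plus strand) encodes BIM, which binds all pro-survival members and can activate BAX directly. Its window before the RefSeq start, chr2:111120664-111120913 on the plus strand of GRCh38.p14, is shown because this gene had the largest change of the 10. It holds no CACGTG, 2 copies of the core searched above and 76.8% G and C, against 62.8% for BAX and 58.0% for BAK1. No GENCODE 29 exon of the gene covers it.

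BCL2L11: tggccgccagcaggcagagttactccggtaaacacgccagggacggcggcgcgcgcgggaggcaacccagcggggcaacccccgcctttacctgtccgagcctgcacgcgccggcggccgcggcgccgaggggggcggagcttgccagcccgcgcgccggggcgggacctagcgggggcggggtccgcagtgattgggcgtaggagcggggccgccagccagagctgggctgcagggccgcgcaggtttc

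In VHL-negative cells BCL2L11 was at 9.25, 9.14 and 6.52 CPM under DMSO and at 19.8, 28.8 and 24.2 CPM under JQ1. The lowest treated library held more than any control by a wide margin. The rise was 2.92-fold (log2 1.54, SE 0.202, 95% interval 1.116 to 1.97, adjusted p = 3.35e-05), and its size stood at percentile 92.7 among the absolute log2 changes of all genes tested. In VHL-positive cells BCL2L11 was at 23.1, 14.4 and 19.75 CPM under DMSO and at 24.7, 32.85 and 25.0 CPM under JQ1. The lowest treated and highest control libraries were close, and the rise of 1.44-fold passed the test narrowly (log2 0.53, SE 0.194, adjusted p = 0.0488).

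That narrow call in VHL-positive cells did not survive 8 of the 12 refits without 1 library. Of VHL-positive libraries, leaving out the second DMSO (log2 0.38), the third DMSO (0.56), the first JQ1 (0.615), the second JQ1 (0.39) or the third JQ1 (0.61) ended it. Of VHL-negative libraries, the second DMSO (0.51), the third DMSO (0.51) and the third JQ1 (0.54) did so. The call was lost too in 7 of the 12 other settings, the threshold of 0.01 among them. Others were total counts alone (log2 0.40, adjusted p = 0.164), protein-coding genes only (log2 0.48, adjusted p = 0.0903) and the filter of 1 CPM (log2 0.50, adjusted p = 0.0667). Of the exon length of BCL2L11, 10.92% overlaps MIR4435-2HG on the opposite strand, a long non-coding RNA that fell with JQ1 from 71.3 ± 3.99 to 36.0 ± 1.61 CPM in VHL-positive cells and from 60.8 ± 6.67 to 37.6 ± 8.22 CPM in VHL-negative cells. The long non-coding RNA thus fell while BCL2L11 rose.

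BID (ENSG00000015475, chromosome 22, 17734138 to 17774770, minus strand) links death receptors to mitochondria once caspase-8 cleaves it. In VHL-negative cells it was at 65.4, 55.5 and 64.1 CPM under DMSO and at 47.1, 34.6 and 39.0 CPM under JQ1. The groups did not overlap, and BID fell 1.53-fold (log2 -0.61, SE 0.143, adjusted p = 0.00393). In the VHL-positive line it was at 50.85, 58.5 and 45.9 CPM under DMSO and at 39.8, 32.6 and 37.2 CPM under JQ1. The groups were again apart, with a fall of 1.42-fold (log2 -0.50, SE 0.144, adjusted p = 0.014). The call in VHL-positive cells ended without the second DMSO library (log2 -0.39, adjusted p = 0.0788), the second JQ1 library (log2 -0.41, adjusted p = 0.0932) or the third JQ1 library (log2 -0.50, adjusted p = 0.0577) of that line.

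PMAIP1 (ENSG00000141682, chromosome 18, 59899948 to 59904306, plus strand) encodes NOXA, which binds MCL1 and promotes its removal. It was at 28.2, 43.55 and 30.8 CPM in VHL-positive DMSO cells and at 54.1, 38.8 and 50.1 CPM under JQ1, and the second library of each group ran against the difference of the means. In VHL-negative cells it was at 26.7, 39.6 and 51.1 CPM under DMSO and at 61.0, 46.4 and 51.5 CPM under JQ1, with overlap through the third control and the second treated library. Neither difference passed the test (log2 0.48, adjusted p = 0.102, and log2 0.44, adjusted p = 0.133). PMAIP1 passed in VHL-positive cells without the second DMSO library of that line (log2 0.71, adjusted p = 0.029), and in VHL-negative cells without the third DMSO library of that line (log2 0.64, adjusted p = 0.0419).

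BBC3 (ENSG00000105327, chromosome 19, 47220822 to 47232766, minus strand) encodes PUMA, which binds all pro-survival members. It was at 14.25, 15.3 and 15.1 CPM in VHL-positive DMSO cells and at 13.4, 13.6 and 15.0 CPM under JQ1, and at 16.5, 15.6 and 21.8 against 15.3, 12.9 and 15.4 CPM in VHL-negative cells. Only the VHL-negative groups stood apart, and neither difference passed (log2 -0.09, adjusted p = 0.676, and log2 -0.30, adjusted p = 0.125). BMF (ENSG00000104081, chromosome 15, 40087890 to 40108892, minus strand), a BH3-only protein released from the cytoskeleton under stress, was the least abundant member. It was at 9.61, 5.035 and 11.2 CPM in VHL-positive DMSO cells and at 8.37, 7.74 and 8.09 CPM under JQ1, the second control being the lowest of the 6 libraries. In VHL-negative cells it was at 5.705, 6.57 and 6.52 against 6.05, 5.36 and 4.89 CPM. Both BMF comparisons overlapped and did not pass (log2 -0.10, adjusted p = 0.774, and log2 -0.20, adjusted p = 0.526).

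In all, 5 of the 10 genes passed the test for JQ1 in VHL-negative cells, 2 higher and 3 lower, where 32.1% of all tested genes passed (14.6% higher, 17.5% lower). In VHL-positive cells 4 passed, 3 higher and 1 lower, against 31.8% of all genes (15.3% higher, 16.5% lower). The median log2 change of the 10 genes was -0.22 in VHL-negative cells, where that of all tested genes was 0.03, and -0.10 in VHL-positive cells, where it was -0.03. Scaling by total counts alone moved the median of all genes to -0.14 in VHL-positive cells and lowered the share of higher genes among calls from 48.1 to 34.1%. In that setting 1 member was called higher (BCL2L1) and 2 lower (BAX and BID) in VHL-positive cells. Without the second VHL-positive JQ1 library 1 member was called there, without the third 2, and without the third JQ1 libraries of both lines 0. Over all genes these fits called 5138, 4891 and 4160, against 6589 with all libraries. All 5 calls in VHL-negative cells were kept in the 12 other settings and in the 12 refits without 1 library. In the authors' deposited table for VHL-negative cells, the same 5 genes had an adjusted p under 0.05, with log2 values of 1.51 (BCL2L11), 0.76 (MCL1), -0.62 (BAX), -0.63 (BAK1) and -0.65 (BID). In the authors' deposited table for VHL-positive cells the same 4 genes passed, BCL2L11 again narrowly (adjusted p = 0.0449). Of all genes with an adjusted p in these tables, 26.9% passed in VHL-negative and 25.7% in VHL-positive cells. Both tables rest on the same libraries and are no separate support.

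**Figure D2:**
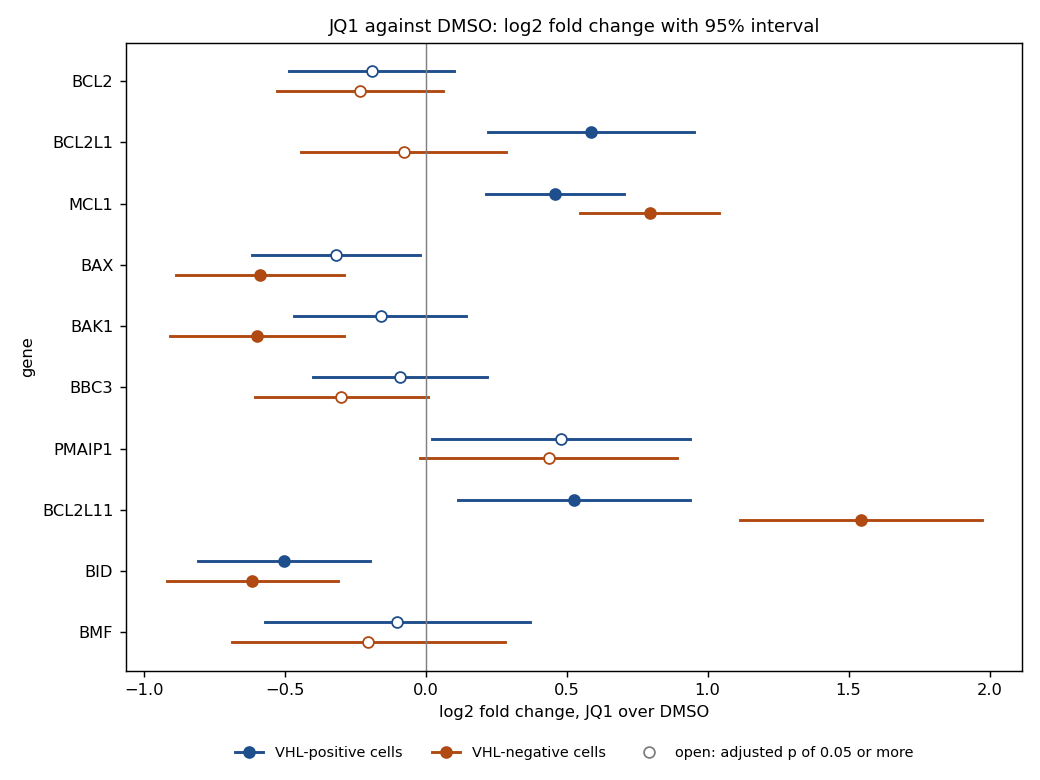
Log2 fold change of JQ1 over DMSO (x axis) for each BCL2 family gene (y axis), with 95% intervals, in VHL-positive (blue) and VHL-negative cells (orange). Open symbols did not pass the test, and BCL2L11 in VHL-negative cells lies farthest from 0 at 1.54.

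Whether JQ1 acted differently on the 2 lines was tested directly, as the difference between both JQ1 effects. Of the 10 genes 0 passed, where 1.21% of all tested genes did (250 genes, 0.497% with a larger and 0.71% with a smaller value in VHL-negative cells). At an unadjusted p under 0.05, edgeR gave 3 of the 10 and 4657 of all genes. DESeq2 called 1 of the 10, BCL2L11, and limma-voom called 0. BCL2L11 had the largest difference, with a JQ1 effect larger by log2 1.02 in VHL-negative cells (SE 0.278, 95% interval 0.43 to 1.61, adjusted p = 0.0758). It passed with DESeq2 (log2 0.98, adjusted p = 0.025), with all genes kept whatever their counts (log2 0.95, adjusted p = 0.0113), without the second VHL-positive DMSO library (log2 1.16, adjusted p = 0.0354) and without the first VHL-negative JQ1 library (log2 1.119, adjusted p = 0.0159). BCL2L1 differed by log2 -0.66 (95% interval -1.18 to -0.15, adjusted p = 0.137) and passed without the first VHL-negative JQ1 library (log2 -0.82, adjusted p = 0.0329). The count over all genes ran from 43 without the third to 3510 without the first VHL-negative JQ1 library. BAK1 differed by -0.44 (adjusted p = 0.219) and MCL1 by 0.34 (adjusted p = 0.236). The remaining 6 genes had differences between -0.27 and -0.04. The median of the 10 was -0.11, and that of all genes 0.01. With total counts alone the all-gene median became 0.11, and the share of larger values among calls went from 41.2 to 56.3%.

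Between the lines, the same 4 groups were compared the other way, so these values share their libraries with those above. Under DMSO, BCL2L11, MCL1 and BCL2 were lower in VHL-negative than in VHL-positive cells. These 3 were the only members called, where 30.7% of all tested genes were called (14.8% higher, 15.9% lower in VHL-negative cells). BCL2L11 was 2.30-fold lower (8.30 ± 1.55 against 19.1 ± 4.36 CPM, log2 -1.20, SE 0.201, adjusted p = 0.000242), and its highest VHL-negative library lay below the lowest VHL-positive one. MCL1 was 1.40-fold lower (214 ± 7.73 against 300.3 ± 1.82 CPM, log2 -0.49, SE 0.116, adjusted p = 0.00434), also without overlap. BCL2 was 1.35-fold lower (119.9 ± 6.55 against 162 ± 33.0 CPM, log2 -0.43, adjusted p = 0.0252), but its libraries overlapped through the second VHL-positive one.

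The BCL2 call under DMSO ended without the first (log2 -0.33) or the third (-0.37) VHL-positive DMSO library and without the first (-0.40) or second (-0.42) VHL-negative DMSO library. It also ended in a fit of the compared groups only (log2 -0.45, adjusted p = 0.0635). BMF, at log2 -0.46 (adjusted p = 0.13), passed when the second VHL-positive DMSO library was left out (log2 -0.72, adjusted p = 0.00241). BAX, BID, BBC3 and PMAIP1 had values between 0.20 and 0.27, and BCL2L1 and BAK1 values of 0.12 and 0.05, none passing. The median of the 10 was 0.08, beside 0.002 for all genes.

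Under JQ1 the called members were BCL2 again, BCL2L1 and BAK1, all lower in VHL-negative cells. Of all tested genes 40.9% were called there (19.7% higher, 21.2% lower). BCL2 was at 102 ± 2.93 against 142 ± 2.52 CPM (log2 -0.48, SE 0.139, adjusted p = 0.0122), with tight and separate groups. BCL2L1 was at 244 ± 39.2 against 356 ± 19.8 CPM (log2 -0.54, SE 0.172, adjusted p = 0.019). This call ended without the second VHL-positive JQ1 library (log2 -0.51), the second VHL-negative JQ1 library (-0.43) or the third (-0.53). BAK1 was at 10.1 ± 1.06 against 13.2 ± 2.08 CPM (log2 -0.39, SE 0.146, adjusted p = 0.0435), with its groups apart by a small gap. Its call ended without the third VHL-positive DMSO (log2 -0.40), the first (-0.26) or second (-0.455) VHL-positive JQ1, or the second (-0.32) or the third (-0.385) VHL-negative JQ1 library. The BAK1 call also ended in 8 of the 12 other settings, the threshold of 0.01 among them. With a replicate block BAK1 did not pass (log2 -0.39, adjusted p = 0.0524). Nor did it with total counts alone (log2 -0.24, adjusted p = 0.238), with no filter (log2 -0.42, adjusted p = 0.109) or with limma-voom (log2 -0.38, adjusted p = 0.0571). Without the second VHL-positive, the second VHL-negative or the third VHL-negative JQ1 library, 1 of the 10 genes was called. Over all genes these fits called 7023, 6742 and 6395, against 8479 with all libraries.

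BCL2L11 and MCL1, which differed between the lines under DMSO, had values of -0.18 (adjusted p = 0.473) and -0.15 (adjusted p = 0.315) under JQ1, and their libraries overlapped. BMF was lower in VHL-negative libraries without overlap, at 5.435 ± 0.581 against 8.07 ± 0.317 CPM, and was not called (log2 -0.57, adjusted p = 0.0572). Its call was gained without the second (log2 -0.58) or the third (-0.58) VHL-positive DMSO library or the first VHL-negative JQ1 library (-0.68). The median of the 10 was -0.17, beside 0.03 for all genes. With total counts alone the all-gene median was 0.19, the share of higher genes among calls went from 48.1 to 62.1%, and 1 member, BCL2L1, was still called.

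**Figure D3:**
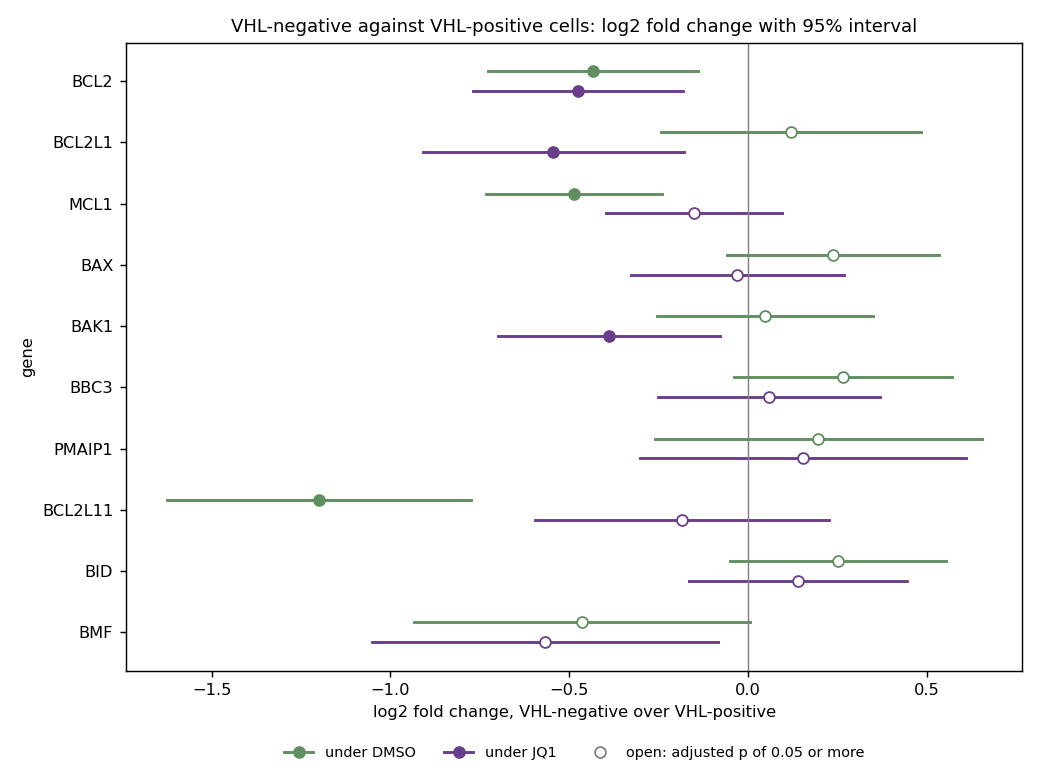
Log2 fold change of VHL-negative over VHL-positive cells (x axis) for each BCL2 family gene (y axis), with 95% intervals, under DMSO (green) and JQ1 (purple). Open symbols did not pass the test, and BCL2L11 moves from -1.20 under DMSO to -0.18 under JQ1.

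Sums over the genes of a role, in CPM per kb, describe how these changes add up and were not tested. The effector sum in VHL-negative cells was 42.8 ± 4.46 under DMSO and 28.4 ± 3.93 under JQ1, and each treated library lay below each control. Because BAX and BAK1 each stood apart there, their sum could not overlap and adds no separate result. In VHL-positive cells the effector sum was 37.1 ± 4.48 and 30.3 ± 0.633, and each treated library lay below each control there too. BAX, the larger part of that sum, stood apart in the same way and was not called in VHL-positive cells. With the exon union as length, the pro-survival sum was 154 ± 10.0 and 214 ± 13.2 in VHL-positive cells, without overlap. In VHL-negative cells it was 137 ± 14.9 and 167 ± 12.2, with the highest control at 154 and the lowest treated library at 156. That small gap depends on the length used. BH3-only sums overlapped between treatments, at 36.1 ± 3.90 and 39.6 ± 3.81 in VHL-positive and 39.4 ± 6.20 and 42.0 ± 4.48 in VHL-negative cells.

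The makeup of these sums was described by shares and ratios within each library. Within the pro-survival sum, MCL1 took 36.2 ± 4.77% in VHL-negative DMSO cells and 51.0 ± 3.6% under JQ1, and 44.8 ± 3.30% and 44.1 ± 1.80% in VHL-positive cells. The ratio of MCL1 to BCL2L1 per kb was 0.652 ± 0.143 and 1.18 ± 0.184 in VHL-negative cells, and 0.983 ± 0.189 and 0.880 ± 0.0634 in VHL-positive cells. BCL2L11 over BID went from 0.0908 ± 0.0213 to 0.418 ± 0.138 in VHL-negative cells and from 0.252 ± 0.0758 to 0.512 ± 0.140 in VHL-positive cells. That ratio could not overlap in either line, since BCL2L11 rose and BID fell without overlap in both, and it adds no separate result. With the exon union as length, PMAIP1 held the largest part of the BH3-only sum by mean in all groups, from 42.0 ± 5.47 to 53.7 ± 4.00% in VHL-positive and from 43.8 ± 7.81 to 56.4 ± 1.80% in VHL-negative cells. With the longest transcript, BID stood above PMAIP1 under DMSO in both lines (20.75 against 17.5 CPM per kb in VHL-positive and 24.7 against 20.1 in VHL-negative cells).

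**Figure D4:**
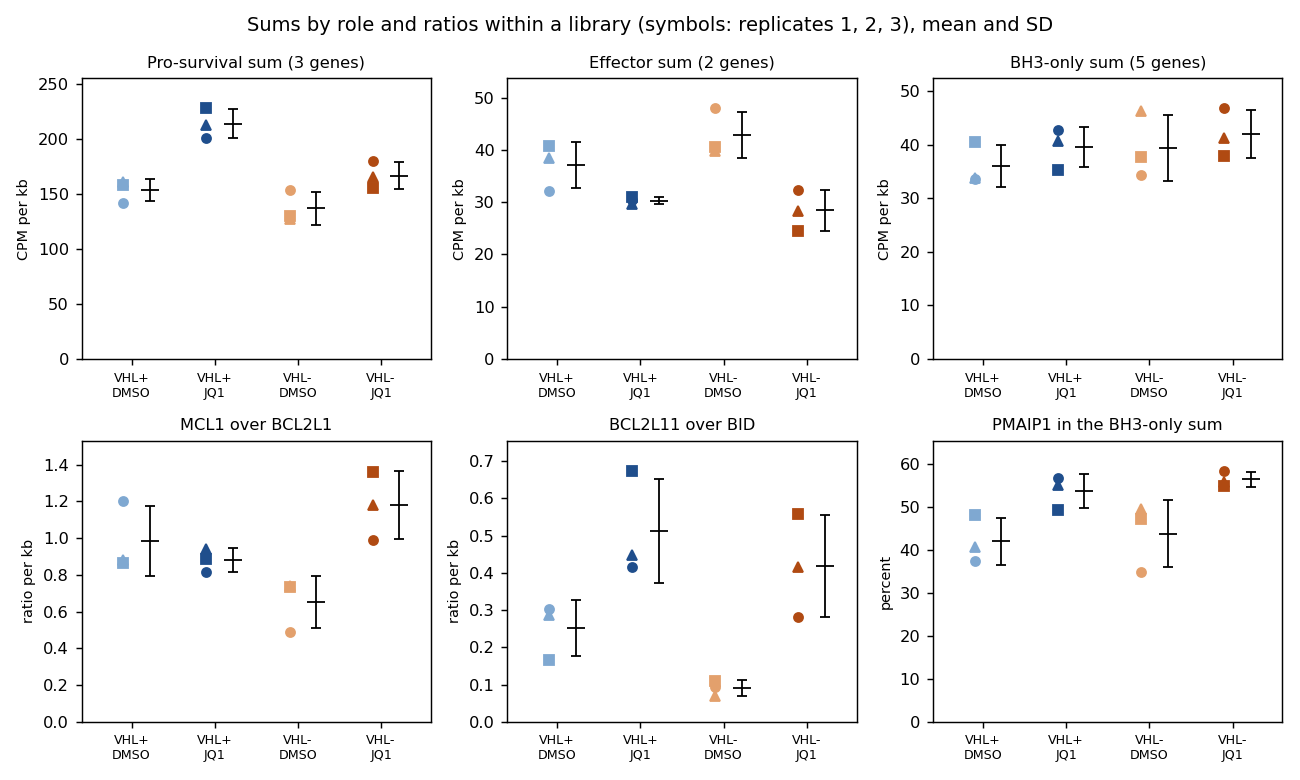
Sums of CPM per kb over the pro-survival, effector and BH3-only genes (upper panels), and the ratios of MCL1 to BCL2L1 and of BCL2L11 to BID and the percent of PMAIP1 in the BH3-only sum (lower panels), by group. Symbols are replicates and bars the mean and SD, and the effector sum in VHL-negative cells lies at 42.8 under DMSO and 28.4 under JQ1.

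The rest of the pathway was described with lists of genes grouped by known role. Their named genes are those with the largest called JQ1 changes in each direction. Of 52 such calls, 30 were kept in all 23 other fits at the same threshold, and the genes named here come from these, apart from CFLAR, with the value in the other line beside them. Counts below are read against the 31.8% of all genes called in VHL-positive and the 32.1% called in VHL-negative cells, and against all-gene medians of -0.03 and 0.03. None of the 52 reversed in any fit. Of 12 other BCL2 family genes tested, 2 rose and 1 fell with JQ1 in VHL-positive cells, and 3 rose and 3 fell in VHL-negative cells (25% and 50% called). BNIP3L and BNIP3, mitochondrial proteins of the hypoxia response that act in mitophagy, rose in both lines. BNIP3 went from 46.8 ± 4.70 to 83.9 ± 6.61 CPM in VHL-positive cells (log2 0.84, adjusted p = 0.000928), and VHL-negative cells went from 231 ± 26.0 to 432 ± 99.8 CPM (log2 0.905, adjusted p = 0.000452). BNIP3L rose by log2 1.22 in VHL-positive and 0.85 in VHL-negative cells. HRK, a BH3-only gene, was at 5.58 ± 0.739 CPM in VHL-negative controls and fell to 3.13 ± 0.400 CPM (log2 -0.82, adjusted p = 0.00551). It fell in VHL-positive cells too (log2 -0.61, adjusted p = 0.0195), a call that ended without the first (-0.42) or the third (-0.59) DMSO library or without the first (-0.54), second (-0.62) or the third (-0.63) JQ1 library of that line. The median of this list was 0.03 in VHL-positive and -0.19 in VHL-negative cells.

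Downstream of mitochondria, 18 genes of the apoptosome, of mitochondrial release and of the caspases were tested. In VHL-positive cells 4 rose and 3 fell, and in VHL-negative cells 1 rose and 4 fell (38.9% and 27.8% called), with medians of 0.01 and -0.13. Both shares lie near the background. APAF1, the scaffold of the apoptosome, rose with JQ1 in the VHL-positive line, from 53.3 ± 1.36 to 90.1 ± 7.30 CPM (log2 0.76, adjusted p = 0.000288). It also rose in VHL-negative cells (log2 0.42, adjusted p = 0.0181), a call that ended without the first DMSO (0.31) or the third JQ1 (0.43) library of that line. Its partner CASP9 rose in the VHL-positive line from 9.58 ± 1.11 to 16.7 ± 1.42 CPM (log2 0.80, adjusted p = 0.000515) and was not called in the other (log2 0.34, adjusted p = 0.0789). CASP10, an initiator of the death receptor path, fell in both lines (log2 -0.91 in VHL-positive and -1.435 in VHL-negative cells). Of 5 inhibitors of apoptosis tested, 1 rose and 2 fell in VHL-positive cells and 3 fell in VHL-negative cells. That is 60% called in each, beside 31.8% and 32.1% of all tested genes, with medians of -0.51 and -0.55. XIAP, which blocks caspases directly, fell from 65.1 ± 7.15 to 40.7 ± 0.804 CPM (log2 -0.68, adjusted p = 0.00104) and from 76.9 ± 6.01 to 50.8 ± 6.94 CPM (log2 -0.60, adjusted p = 0.00237). BIRC3, an NF-kappa-B target, fell in VHL-positive cells (log2 -1.73, and -0.965 with the second VHL-positive DMSO library left out) and was not called in VHL-negative cells (log2 -0.335, adjusted p = 0.459).

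In the death receptor path, 10 genes were tested. In VHL-positive cells 3 rose and 4 fell, and in VHL-negative cells 2 rose and 3 fell. That is 70% and 50% called, beside 31.8% and 32.1% of all tested genes, with medians of -0.14 and -0.26. The receptor FAS fell in both lines (log2 -0.98 in VHL-negative and -0.92 in VHL-positive cells), the latter value becoming -0.54 without the second VHL-positive DMSO library. RIPK1, a kinase of the receptor complexes, rose by log2 0.72 in VHL-positive and 0.76 in VHL-negative cells. The ligand TNFSF10 fell in both lines (log2 -1.13 in VHL-positive and -0.59 in VHL-negative cells). Its receptor TNFRSF10A also fell in both (log2 -0.59 and -0.68), the VHL-positive call ending without the second DMSO library of that line (-0.36). The adaptor TRADD rose in VHL-positive cells (log2 0.65) and was not called in VHL-negative cells (log2 0.31, adjusted p = 0.125). The test of the difference between both JQ1 effects was passed by 1.21% of all tested genes. With that share, 1 call over these lists is not read as a result about them. CFLAR, which blocks caspase-8 at the receptors, was the 1 gene of these lists whose JQ1 effects passed the test of their difference. It went from 144 ± 16.4 to 112 ± 5.83 CPM in VHL-positive cells and from 161 ± 12.0 to 221 ± 16.6 CPM in VHL-negative cells (difference log2 0.83, SE 0.175, adjusted p = 0.0325). Of 12 refits without 1 library 2 kept that call, those without the first VHL-positive DMSO and the first VHL-negative JQ1 library. In the other 10 the difference ran from 0.71 to 0.88.

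Among regulators of BCL2 family protein turnover, 9 genes were tested. In VHL-positive cells 4 rose and 2 fell, and in VHL-negative cells 1 rose and 2 fell. That is 66.7% and 33.3% called, beside 31.8% and 32.1% of all tested genes, with medians of 0.09 and -0.02. CUL5, a scaffold of ubiquitin ligases, fell in both lines (log2 -0.60 in VHL-positive and -0.55 in VHL-negative cells). FBXO4, a substrate adaptor, fell in both lines as well (log2 -0.80 and -0.93). Of transcription factors known to act on BCL2 family genes, 14 were tested. In VHL-positive cells 4 rose and 2 fell, and in VHL-negative cells 2 rose and 5 fell. These are 42.9% and 50% called, against the same 31.8% and 32.1% of all tested genes, with medians of 0.12 and 0.06. NFKB1, a subunit of NF-kappa-B, fell in both lines (log2 -1.002 and -0.96). STAT3 rose in both lines (log2 0.62 and 0.46). FOXO1 rose in VHL-positive cells (log2 0.69) and was not called in VHL-negative cells (log2 0.41, adjusted p = 0.0621). MYC, which the labels name as the target of JQ1, fell from 342 ± 84.4 to 160 ± 28.9 CPM in VHL-negative cells (log2 -1.10, adjusted p = 0.000869). In VHL-positive cells MYC was at 171 ± 48.0 and 161 ± 18.9 CPM (log2 -0.09, adjusted p = 0.795), and its JQ1 effects did not pass the test of their difference (log2 -1.01, adjusted p = 0.0852). Over all lists, 8 genes had too few counts to be tested.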

How the data were processed

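RNA-seq counts per gene were deposited by the authors for 12 libraries in 4 groups of 3. Per the submitters' processing notes the tools were featureCounts, DESeq2 1.30.1, Subread 2.0.3 and STAR 2.7.8, with GRCh38 as build, and no source used here says whether strand was used in counting. The authors' deposited comparison tables hold log2 fold changes with standard errors, a test score, p-values with adjusted p-values, and a mean of size-factor-scaled counts (per the file headers), and 0 per-sample columns were left unused. The members and gene lists were chosen with earlier results of these data known.

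Raw counts were fitted over all 12 libraries with edgeR 4.0.16 in R 4.3.3 (TMM factors, filterByExpr, glmQLFit and glmQLFTest). The filter kept 20714 genes, with 99.87% of counts. Genes were called at an adjusted p (Benjamini-Hochberg) under 0.05, and the scripts were tested on simulated data. CPM used TMM-scaled library sizes, and log2 CPM a prior count of 2. Counts of the members ran from 90 to 10906 per library, so counting error is a larger part of the spread for scarce genes such as BMF and BAK1, and 3 libraries per group limit the precision. Exon lengths, positions and overlaps came from GENCODE 29, and windows before gene starts from RefSeq (GRCh38.p14), which matched 9 of the 10 genes. Named genes were the 10 members and, per other list and JQ1 comparison, up to 3 called genes per direction with the largest absolute log2 change at a mean of at least 2 log2 CPM. The text keeps those with a call that held in every other fit in at least 1 line, a restriction set after values were seen, and adds CFLAR. Some genes of the lists are counted but not reported here by name.

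Alternatives were other scalings and filters (among them 1 CPM in 3 libraries), protein-coding genes only, DESeq2 1.42.0, limma-voom (limma 3.58.1), a replicate block, a threshold of 0.01, fits of the compared groups only, libraries left out, and the longest transcript as length. Same-numbered libraries deviated together by r over 0.1 in all 3 pairs between both JQ1 groups only (0.481, 0.355 and 0.155 over 8088 genes). The cells with a short hairpin against MYC that the protocols mention were not analysed here.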

Additional observations from a re-analysis of the deposited data

Results flagged for a closer look

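Of all tested genes 1.21% passed the test of the difference between both JQ1 effects. The JQ1 effects of the lines differed beyond their error for CFLAR, whose product restrains caspase-8. The difference was 0.83 on the log2 scale (adjusted p = 0.0325 by edgeR's quasi-likelihood test), made of a fall by 0.37 in VHL-positive cells (adjusted p = 0.0323) and a rise of 0.46 in VHL-negative cells (adjusted p = 0.00971). Over 22 other fits the difference ran from 0.71 to 0.96, with adjusted p from 0.000271 to 0.287, and 12 of them ended the call, 10 by leaving out 1 library. The fall in VHL-positive cells was lost without the second DMSO library (log2 -0.25) or without the first (-0.325), second (-0.40) or the third (-0.34) JQ1 library of that line, and without the third VHL-negative JQ1 library (-0.355). The rise in VHL-negative cells was lost when all genes were kept whatever their counts (log2 0.39, adjusted p = 0.109) and without the third JQ1 libraries of both lines (log2 0.47, adjusted p = 0.0646), and both settings also ended the call in VHL-positive cells (log2 -0.37, adjusted p = 0.148, and log2 -0.34, adjusted p = 0.18).

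VHL itself was the other gene flagged for such a difference, -1.29 on the log2 scale (SE 0.173, adjusted p = 0.00161 by the same test). VHL rose with JQ1 in VHL-positive cells (log2 1.59, adjusted p = 3.47e-07) and was not called in VHL-negative cells (log2 0.31, adjusted p = 0.0674). Over the other fits the difference ran from -1.39 to -1.155, and it was lost only when the third JQ1 libraries of both lines were left out (log2 -1.22, adjusted p = 0.0694). Counts do not separate an endogenous from an introduced VHL transcript.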

How the results depend on the processing

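Of 50 comparisons of single BCL2 family genes, 15 were called, and 0 of their 360 values under alternatives reversed, while 58 were no longer called. Of 830 values of uncalled comparisons 20 were newly called and 33 reversed. The number of called members for JQ1 in VHL-positive cells, 4, became 1 at a threshold of 0.01 and 0 without the third JQ1 libraries of both lines, and ran from 1 to 4 when 1 library was left out. Between the lines under JQ1, 3 became 1 with total counts alone, 0 at 0.01 and 0 without those libraries, and ran from 1 to 4. For the difference between JQ1 effects, 0 became 1 with no filter and 1 with DESeq2, and ran from 0 to 2. The cause of these changes was not tested, apart from the fewer libraries and stricter threshold themselves.

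Uncalled log2 values that changed sign were as follows. With total counts alone, MCL1 (0.01) and BAX (0.12) between the lines under JQ1, and the differences of BCL2 (0.058) and PMAIP1 (0.001). With the filter of 1 CPM, BAX under JQ1 (0.019) and the differences of BCL2 (0.028) and PMAIP1 (0.018). With protein-coding genes only, BCL2L1 for JQ1 in VHL-negative cells (0.007), BAX under JQ1 (0.085), and the differences of BCL2 (0.095), PMAIP1 (0.079), BID (0.015) and BMF (0.027). Without the first DMSO libraries of both lines, BCL2L1 for JQ1 in VHL-negative cells (0.10), and BCL2L1 (-0.21) and BAK1 (-0.035) between the lines under DMSO. Without the third JQ1 libraries, the difference of PMAIP1 (0.002).

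Leaving out 1 library also crossed 0. For JQ1, BMF ran from -0.35 to 0.15 in VHL-positive and BCL2L1 from -0.21 to 0.11 in VHL-negative cells. Between the lines under DMSO, BCL2L1 ran from -0.067 to 0.22, BAK1 from -0.021 to 0.13 and PMAIP1 from -0.036 to 0.42. Under JQ1, BAX ran from -0.16 to 0.074 and BID from -0.009 to 0.24. The differences of BCL2 (-0.16 to 0.095), PMAIP1 (-0.28 to 0.18) and BMF (-0.35 to 0.14) did so too.

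With a replicate block, 3 members were called for JQ1 in VHL-positive cells (BCL2L11 was lost at log2 0.51, adjusted p = 0.0698), 5 in VHL-negative cells, 3 and 2 between the lines under DMSO and JQ1, and 0 for the difference. No other member's call changed with the block than those of BCL2L11 and, under JQ1, BAK1. Outside the pair of JQ1 groups, 1 or more same-numbered pairs had r at or under 0.1 in each comparison. Between VHL-negative DMSO and JQ1 libraries r was 0.173, 0.388 and 0.093, each above the best other number (-0.111, 0.075 and 0.015), a hint from the data only. Between VHL-positive DMSO and JQ1 libraries it was 0.201, 0.031 and 0.014, and between the lines under DMSO -0.491, -0.154 and -0.102.

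Over all genes, the 250 called for the difference became 1336 with no filter, 1283 with DESeq2, 47 at 0.01 and 25 without the third JQ1 libraries. At 0.01 the JQ1 calls went from 6589 to 3989 in VHL-positive and from 6649 to 4039 in VHL-negative cells, and the calls between lines from 6357 to 4137 under DMSO and from 8479 to 5483 under JQ1. Without the third JQ1 libraries they were 4160, 3957 and, between lines under JQ1, 4814.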

Other observations

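Levels of other members of the wider family are given by line. These 4 genes were chosen after their values were seen, and their values are given as levels with no test. BNIP3, a hypoxia-response gene of mitophagy, was at 46.8 ± 4.70 CPM in VHL-positive and 231 ± 26.0 CPM in VHL-negative cells under DMSO, and at 83.9 ± 6.61 and 432 ± 99.8 CPM under JQ1. Its relative BNIP3L was at 47.8 ± 14.3 and 155 ± 4.40 CPM under DMSO and at 112 ± 2.73 and 279 ± 37.9 CPM under JQ1. HRK ran the other way, at 13.4 ± 3.45 CPM in VHL-positive and 5.58 ± 0.739 CPM in VHL-negative cells under DMSO and at 8.80 ± 0.614 and 3.13 ± 0.400 CPM under JQ1. BCL2A1, a pro-survival gene of blood cells and an NF-kappa-B target, was scarce, at 0.14 ± 0.138 CPM in VHL-positive and 1.26 ± 0.0557 CPM in VHL-negative DMSO cells. Of the 12 other family genes tested, 5 were called higher and 1 lower in VHL-negative cells under DMSO, and 4 higher and 2 lower under JQ1. That is 50% in both, where 30.7% and 40.9% of all tested genes were called.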
